A study of Mus musculus with 6 samples.

Results

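Adipokines are proteins that fat cells release into the blood or into the tissue around them. The transcripts of 9 of them (*Adipoq*, *Lep*, *Retn*, *Cfd*, *Rarres2*, *Rbp4*, *Angptl4*, *Nrg4* and *Nampt*) were followed in inguinal white adipose tissue (IngWAT), and all 9 were found by symbol among the 46517 genes of the count tables. The comparison was between *Hdac3* floxed mice, which keep the histone deacetylase HDAC3, and H3atKO mice, in which the floxed gene is deleted in adipose tissues by a Cre recombinase under the *Adipoq* promoter, which came from the B6:FVB-Tg(Adipoq-cre)1Evdr/J line. Mice of the floxed group thus carry the same floxed *Hdac3* gene as H3atKO mice. Mice of both groups were C57Bl6, 5 to 9 months old and fed chow, and the methods give males. Each group had 3 samples, and each sample was a pool of RNA (500 ng) from 2 or 3 mice, so that the spread between samples is one between pools and not between animals. The driver also ties the model to one of the genes described, since Cre is made where the *Adipoq* promoter is active, that is in adipocytes, while the other cells of the fat pad keep *Hdac3*.

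White fat is an endocrine tissue. Adiponectin (*Adipoq*) and leptin (*Lep*) act on distant organs, the first raising insulin sensitivity and the second reporting the size of the fat store to the brain, and resistin (*Retn*) is a hormone of rodent adipocytes. Other products act on plasma components, as adipsin (*Cfd*), the serine protease that cleaves factor B in the alternative complement pathway, chemerin (*Rarres2*), which attracts immune cells and promotes adipocyte differentiation, and retinol binding protein (*Rbp4*), the carrier of vitamin A. *Angptl4* encodes an inhibitor of lipoprotein lipase, neuregulin 4 (*Nrg4*) is a factor known from brown fat, and *Nampt* encodes the enzyme that makes nicotinamide mononucleotide for NAD synthesis and is also secreted as visfatin.

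Each sample held between 23865507 and 35200685 counts on genes, and 3 counts correspond to between 0.0852 and 0.126 cpm (counts scaled to a library total of fixed size). All further cpm values also carry the TMM scaling between libraries. PCR copies were not marked, so that this floor covers counting error only. The least counted value among the 9 transcripts was 156 counts, for *Rarres2* in H3atKO replicate 3, and all 9 passed the filter of 1 cpm in at least 1 sample in every one of the 6 samples. *Hdac3* itself stood at 71.7 ± 7.61 cpm (SD, n = 3) in floxed and 20.5 ± 7.28 in H3atKO samples, and every H3atKO sample was below every floxed sample. The 14 adipocyte markers, among them *Plin1* and *Fabp4*, were all detected and together held 33291 ± 11953 cpm in floxed and 35179 ± 10301 cpm in H3atKO samples (SD, n = 3 each). The near-equal sums do not hold gene by gene. The median log2 fold change (H3atKO minus floxed) of the 14 was -0.92, with 4 positive and 10 negative. Over all tested genes it was -0.09, with 7112 positive and 7855 negative. Of the 14, limma called 1 higher and 1 lower (adjusted p under 0.05), a share of 14.3% against 16.5% of all tested genes. The groups also differed in the make-up of their libraries, and these differences cannot be told apart from the genotype. Transcripts of the mitochondrial genome took 6.92% to 12.9% of the counts in floxed and 26.9% to 35.3% in H3atKO samples. Levels also followed the GC content of transcripts: across genes, the log2 level in a sample relative to the average of all samples correlated with GC content with Spearman's rho of 0.0969 to 0.800 in floxed and -0.711 to -0.433 in H3atKO samples, and this trend cannot be told apart from the genotype. Most changes are therefore also given as a GC-corrected value, for which the curve of each sample on GC content was subtracted. The GC-corrected median of the 14 adipocyte markers was -0.21, against 0.03 over all tested genes.

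Of the 9 adipokine transcripts, 3 were down-regulated and 1 was upregulated in H3atKO samples (adjusted p under 0.05). *Cfd* fell 19.1-fold in mean cpm, *Rarres2* 7.36-fold and *Angptl4* 5.53-fold, and *Nampt* rose 2.76-fold. *Adipoq* was at nearly the same mean level in both groups, and *Lep* varied more within a genotype than between the means of the genotypes. Differential expression was computed with limma voom over 14967 genes, of which 16.5% were called in either direction (9.42% higher and 7.07% lower in H3atKO samples). The median log2 fold change was -1.57 over the 9 transcripts and -0.09 over all tested genes. The samples of the groups did not overlap for 6 of the 9 transcripts (4 lower and 2 higher in H3atKO samples), against 51.7% of all tested genes (28.6% lower and 23.1% higher).

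Other fits gave other counts. Because samples with the same replicate number deviated together, the number was also entered as a block. That agreement was read from the same expression values that the block fits test, so their p-values are no separate support. With this block 2 of the 9 were called higher and 4 lower, where 53.5% of all genes were called (24.8% higher and 28.7% lower). With the GC correction 0 were called higher and 2 lower, *Cfd* and *Rarres2*, where 8.61% of all genes were called (5.55% higher and 3.06% lower). At an unadjusted p under 0.05 in the GC-corrected fit the counts were 1 and 4. Without the correction they were 2 and 4, where 6562 of the 14967 tested genes were under this unadjusted p. The number of all genes with the correction is not given here. With both the block and the GC correction, 0 were called higher and 4 lower (*Retn*, *Cfd*, *Angptl4* and *Rarres2*), where 22.8% of all genes were called (13.1% higher and 9.71% lower). The quasi-likelihood test of edgeR called 1 higher and 3 lower, where 31.2% of all genes were called (12.8% higher and 18.4% lower), and DESeq2 called 1 and 4, where 42.8% were called (19.6% higher and 23.2% lower). Scaling moved all genes. The median log2 fold change of all genes was -0.94 with library sizes alone, where 306 genes were called higher and 5667 lower in place of 1410 and 1058, and it was 0.77 with libraries scaled to the adipocyte markers. With library sizes alone *Nampt* was at 0.66 on the log2 scale and was not called (adjusted p = 0.181). With the adipocyte markers as the scale only *Cfd* of the 9 passed in limma (adjusted p = 0.0301), and *Rarres2* (-2.23, adjusted p = 0.0697), *Angptl4* (-1.56, adjusted p = 0.116) and *Nampt* (2.38, adjusted p = 0.0876) kept their sign.

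**Figure D1:**
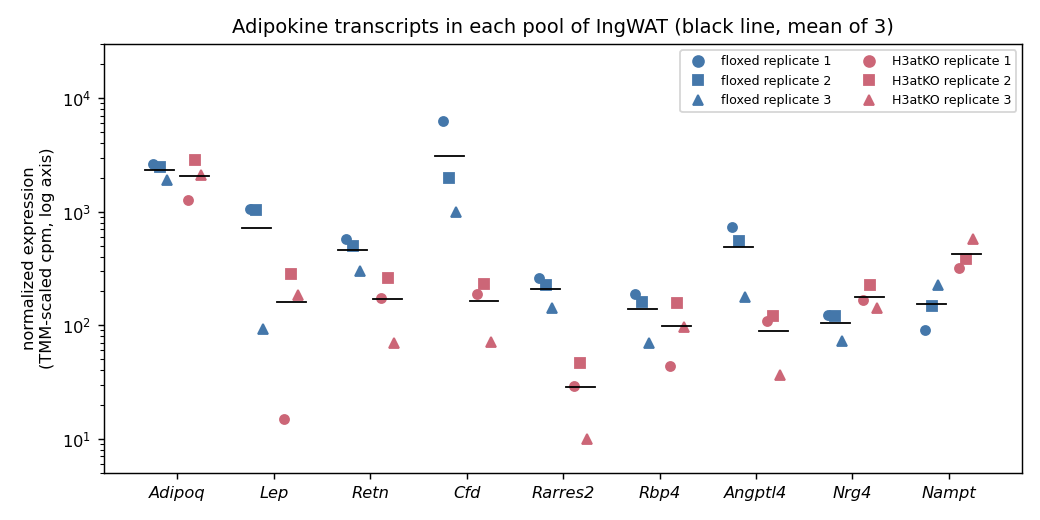
Normalized expression (TMM-scaled cpm, log axis) of the 9 transcripts in each of the 6 pools, with blue marks for floxed, red marks for H3atKO, marker shape for the replicate number and a black line for the mean of 3. The red marks of *Cfd* (70.4 to 229 cpm) and *Rarres2* (9.86 to 46.2 cpm) lie below all blue marks, those of *Nampt* lie above them, and those of *Adipoq* and *Lep* are mixed with them.

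*Adipoq* (ENSMUSG00000022878; GRCm38, chromosome 16, 23146536 to 23158028) was expressed at 2647, 2478 and 1916 cpm in floxed replicates 1 to 3 and at 1266, 2876 and 2092 cpm in H3atKO replicates 1 to 3. The groups overlapped, with the lowest and the highest of the 6 values both in H3atKO samples. The difference on the log2 scale (H3atKO minus floxed) was -0.24 (± 0.35 SE, 95% confidence interval -1.05 to 0.58, limma adjusted p = 0.615), and it was -0.42 with GC content corrected (adjusted p = 0.421). The direction turned when libraries were scaled to the adipocyte markers, with *Adipoq* at 0.63 on the log2 scale (adjusted p = 0.485), and it turned without H3atKO replicate 1 (0.06). With library sizes alone the direction was kept and the value was called (-1.09, adjusted p = 0.0173).

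The 250 bases before the RefSeq start of *Adipoq* are shown because the promoter of this gene drives the Cre transgene. They are the endogenous sequence of GRCm38.p6 (chr16:23146286-23146535, plus strand), 5′ to 3′, with the letters CCAAT on either strand in capitals:
Adipoq: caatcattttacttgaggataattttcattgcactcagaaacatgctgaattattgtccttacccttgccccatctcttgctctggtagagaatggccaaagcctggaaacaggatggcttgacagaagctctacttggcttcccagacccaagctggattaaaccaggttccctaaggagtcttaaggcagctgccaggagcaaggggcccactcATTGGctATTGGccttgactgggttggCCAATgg
CCAAT occurred 3 times in this stretch, and in 37.4% of 32851 RefSeq promoters of 300 bases.

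Tested genes within 200 kb of *Adipoq* were read as well, since the promoter of the Cre transgene comes from this locus. The 6 others were *Eif4a2*, *Gm24616*, *Rfc4*, *B630019A10Rik*, *BC106179* and *St6gal1*. All 6 had positive log2 fold changes between 0.44 and 2.28, against 7112 positive of 14967 tested genes. All except *St6gal1* lay in deciles of GC content whose median log2 fold change over all genes was positive (0.38 to 1.13). The GC-corrected values were between 0.25 and 1.57, and only that of *Rfc4* was called. *Rfc4*, a subunit of the clamp loader of DNA replication, went from 3.88 ± 1.40 to 18.3 ± 3.49 cpm (SD, n = 3 each; limma adjusted p = 0.0206) and stayed higher after the GC correction (1.57, adjusted p = 0.0272). *Eif4a2*, a translation initiation factor whose gene overlaps *Rfc4*, rose by 1.34 on the log2 scale (adjusted p = 0.0345), and its GC-corrected value was 0.31 (adjusted p = 0.230).

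*Lep* (ENSMUSG00000059201; chromosome 6, 29060220 to 29073877) was expressed at 1051, 1031 and 93.5 cpm in floxed replicates 1 to 3 and at 14.99, 282 and 184 cpm in H3atKO replicates 1 to 3. Floxed replicate 3 thus lay below 2 of the 3 H3atKO samples. The values spanned 11.2-fold within the floxed and 18.8-fold within the H3atKO group, against 4.52-fold between the group means. The difference of -2.36 on the log2 scale (± 1.303 SE, 95% confidence interval -5.40 to 0.68, limma adjusted p = 0.192) did not pass the threshold, nor did the GC-corrected value of -2.37 (adjusted p = 0.275). Without floxed replicate 3 it was -3.51 (adjusted p = 0.0481), and without H3atKO replicate 1 it was -1.05 (adjusted p = 0.487). Floxed replicate 3 also held the least adipocyte marker transcripts of the 6 samples (20396 cpm summed, against 26388 to 46513 in the others) and the most transcripts of the progenitor and fibroblast list (9396 cpm, against 1548 to 2906) and of the macrophage list (2428 cpm, against 377 to 669). The part of these cells in the *Lep* values was not tested, and in bulk tissue fewer cells of a type cannot be told apart from less RNA per cell.

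*Retn* (ENSMUSG00000012705; chromosome 8, 3655770 to 3660110) was expressed at 574, 494 and 301 cpm in floxed replicates 1 to 3 and at 174, 263 and 70.4 cpm in H3atKO replicates 1 to 3. All H3atKO values were below all floxed values. Its log2 fold change of -1.57 (± 0.50 SE, limma adjusted p = 0.0629) missed the threshold, as did the GC-corrected value of -1.47 (adjusted p = 0.0974). Pairing the samples by number (the replicate block) gave -1.59 (adjusted p = 0.00597), and pairing them with GC content corrected gave -1.49 (adjusted p = 0.0197). *Retnla*, which encodes a resistin-like protein made by macrophages and other cells of fat, was looked up after the values had been seen, and it fell from 196 ± 68.9 to 60.2 ± 12.5 cpm (SD, n = 3 each; log2 fold change -1.67, limma adjusted p = 0.0243). Its GC-corrected value was -1.97 (adjusted p = 0.0119).

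Of the transcripts that encode plasma and complement factors, *Cfd* (ENSMUSG00000061780; chromosome 10, 79890853 to 79892655) had the largest decrease among the 9 without a GC correction, and *Rarres2*, *Lep* and *Angptl4* had lower GC-corrected values. Its expression was 6343, 1969.9 and 990.2 cpm in floxed replicates 1 to 3 and 188, 229 and 70.4 cpm in H3atKO replicates 1 to 3. The lowest floxed pool was above the highest H3atKO pool, although the floxed pools alone spanned 6.41-fold. *Cfd* fell by 3.99 on the log2 scale (± 0.71 SE, limma adjusted p = 0.0223). It remained called with GC content corrected, at -1.98 (± 0.32 SE, adjusted p = 0.0228). The transcript has a GC content of 58.4%, in the decile of genes with the highest GC content, where the median of all genes was -2.19, and 5.29% of the genes of that decile had a lower value than *Cfd*. The 250 bases before its start, from GRCm38.p6 (chr10:79890603-79890852, plus strand), are shown 5′ to 3′ as those of a transcript called lower both with and without the GC correction:
Cfd: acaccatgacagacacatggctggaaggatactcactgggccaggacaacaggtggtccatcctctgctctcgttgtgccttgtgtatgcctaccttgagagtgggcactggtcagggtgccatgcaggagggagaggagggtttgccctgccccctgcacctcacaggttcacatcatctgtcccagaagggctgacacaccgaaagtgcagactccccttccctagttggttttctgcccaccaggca
Searched on either strand were the nuclear receptor letters AGGTCA, their repeat after 1 base (DR1, whose letters also count as AGGTCA), the C/EBP letters (TTGC, then any 2 bases, then AA), the E-box CACGTG, the GC box GGGCGG, the TATA box TATAAA and the CCAAT box. None of these letters is in the window of *Cfd*, nor in the one before *Retn*. Of the RefSeq promoters 0.0396% hold the DR1 repeat, 7.15% the E-box and 13.6% the TATA box.

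*Rarres2* (ENSMUSG00000009281; chromosome 6, 48569696 to 48572789) was expressed at 262, 225 and 142 cpm in floxed replicates 1 to 3 and at 29.2, 46.2 and 9.86 cpm in H3atKO replicates 1 to 3. The groups were far apart, and *Rarres2* fell by 3.04 on the log2 scale (± 0.53 SE, limma adjusted p = 0.0213). Corrected for GC content the value was -2.73 (± 0.47 SE, adjusted p = 0.0246). Its GC content of 50.5% lies in a decile whose median was -0.18, and 0.938% of the genes there had a lower value. The gene overlaps *Lrrc61* on the opposite strand, which had at most 600 counts in a sample.

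*Rbp4* (ENSMUSG00000024990; chromosome 19, 38116629 to 38125281) was expressed at 190.0, 160.1 and 69.3 cpm in floxed replicates 1 to 3 and at 43.9, 157 and 95.7 cpm in H3atKO replicates 1 to 3. The groups overlapped, and H3atKO replicate 2 lay beside floxed replicate 2. On the log2 scale the difference was -0.57 (± 0.55 SE, 95% confidence interval -1.84 to 0.71, limma adjusted p = 0.441). The sign turned with GC content corrected (0.86, adjusted p = 0.305) and with scaling to the adipocyte markers (0.32, adjusted p = 0.735).

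*Angptl4* (ENSMUSG00000002289; chromosome 17, 33773750 to 33781830) was expressed at 739, 555 and 176 cpm in floxed replicates 1 to 3 and at 110.0, 119.9 and 36.3 cpm in H3atKO replicates 1 to 3. The groups did not overlap, and replicate 3 was the lowest pool in both. *Angptl4* fell by 2.39 on the log2 scale (± 0.64 SE, limma adjusted p = 0.0461). The GC-corrected value of -2.02 missed the threshold (adjusted p = 0.0729), whereas adding the block to it gave -2.04 (adjusted p = 0.0103).

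*Nrg4* (ENSMUSG00000032311; chromosome 9, 55220222 to 55326844) was expressed at 124, 120.3 and 72.4 cpm in floxed replicates 1 to 3 and at 168, 224 and 142 cpm in H3atKO replicates 1 to 3. All H3atKO values were above all floxed values. A difference of 0.77 on the log2 scale (± 0.30 SE, limma adjusted p = 0.0958) missed the threshold and passed it with the replicate block (0.77, adjusted p = 0.0176). Corrected for GC content 0.12 remained (adjusted p = 0.860), and with library sizes alone the value was -0.080 (adjusted p = 0.862). *Nrg4* overlaps *Fbxo22* on the opposite strand, which had at most 1548 counts in a sample. The 8 brown adipocyte markers, listed beside it because *Nrg4* is known from brown fat, summed to between 34.6 and 74.1 cpm in floxed and between 334 and 1149 cpm in H3atKO samples, and 3 of the 7 tested were upregulated, against 9.42% of all tested genes.

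*Nampt* (ENSMUSG00000020572; chromosome 12, 32819545 to 32853349) was expressed at 91.6, 147 and 225 cpm in floxed replicates 1 to 3 and at 320.5, 383 and 576 cpm in H3atKO replicates 1 to 3. All H3atKO pools were above all floxed pools, and each was above the floxed pool of the same number by 1.35 to 1.81 on the log2 scale. *Nampt* rose by 1.52 on the log2 scale (± 0.38 SE, limma adjusted p = 0.0417). The GC-corrected value of 0.50 (± 0.19 SE) was not called (adjusted p = 0.128), nor was it with the block added (0.50, adjusted p = 0.0741). With a GC content of 40.3% the transcript lies in the decile with the lowest GC content, where the median was 1.13, and 74.5% of the genes there had a lower value. The RefSeq start of *Nampt* lies inside the gene as GENCODE bounds it. The 250 bases before this RefSeq start, from GRCm38.p6 (chr12:32820085-32820334, plus strand), are shown 5′ to 3′ as those of the only transcript of the 9 that passed the threshold upward, with GC boxes (GGGCGG) and 1 AGGTCA on either strand in capitals:
Nampt: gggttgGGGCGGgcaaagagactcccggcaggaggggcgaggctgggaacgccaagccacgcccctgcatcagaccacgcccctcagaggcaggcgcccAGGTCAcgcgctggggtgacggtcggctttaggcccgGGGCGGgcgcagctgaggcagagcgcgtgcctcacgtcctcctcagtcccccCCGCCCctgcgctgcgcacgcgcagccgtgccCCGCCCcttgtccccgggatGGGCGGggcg
GGGCGG occurred 5 times here and is found in 35.7% of the RefSeq promoters, and AGGTCA is found in 16.3%. In the stretch before *Lep* the C/EBP letters were read once on each strand at the same place, 55 bases before the start, and these letters are found in 10.8% of the promoters.

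**Figure D2:**
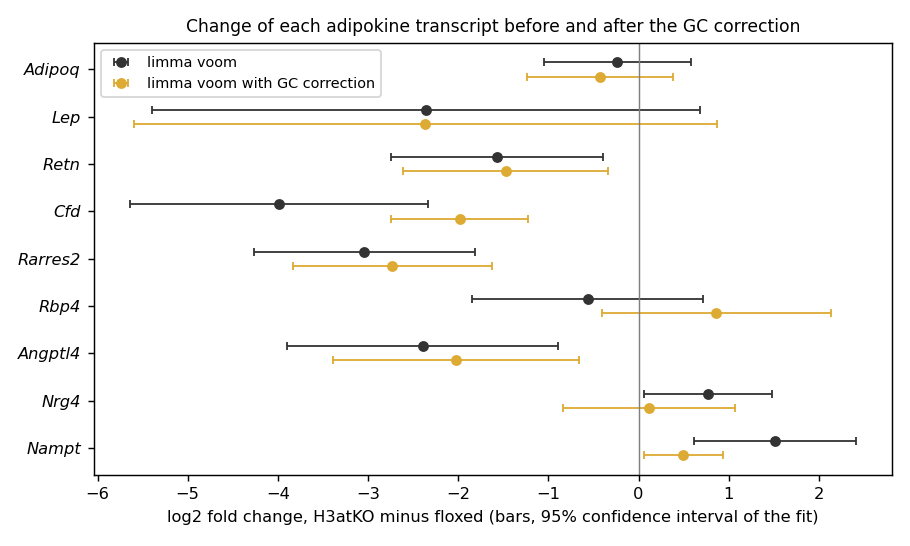
Log2 fold change of each transcript (H3atKO minus floxed, x axis) with its 95% confidence interval, in black from limma voom and in yellow after the GC correction. *Rarres2*, *Angptl4*, *Retn* and *Lep* moved little between the fits, *Cfd* went from -3.99 to -1.98, *Nampt* from 1.52 to 0.50, and *Rbp4* crossed 0. Not drawn are the other scalings, under which *Nrg4* was at -0.080 (library sizes alone) and *Adipoq* at 0.63 and *Rbp4* at 0.32 (adipocyte markers). The intervals are not adjusted for the number of genes tested.

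**Figure D3:**
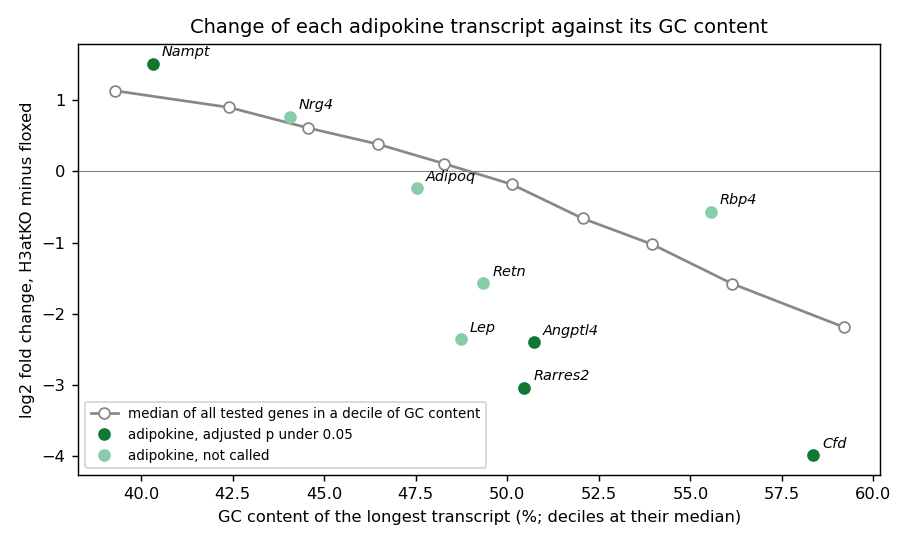
Log2 fold change (y axis) of each of the 9 transcripts against the GC content of its longest annotated transcript (x axis, %), with the median of all tested genes per decile of GC content as open circles joined by a line. *Cfd*, *Rarres2*, *Angptl4*, *Lep* and *Retn* lie below the line, *Rbp4* above it, and *Nrg4* and *Nampt* near it.

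The calls depended on which pools were in the fit. Without floxed replicate 3, *Cfd*, *Rarres2*, *Angptl4*, *Nampt*, *Retn* and *Lep* all passed the threshold, with adjusted p between 0.00612 and 0.0481 in limma. Without H3atKO replicate 2 the calls of *Cfd* (adjusted p = 0.0414) and *Rarres2* (adjusted p = 0.0346) remained, and those of *Angptl4* (adjusted p = 0.0685) and *Nampt* (adjusted p = 0.0800) were lost. Without floxed replicate 1, floxed replicate 2, H3atKO replicate 1 or H3atKO replicate 3, none of the 9 passed. The share of all genes called moved as well, from 44.4% without floxed replicate 3 and 3.57% without H3atKO replicate 2 to 1.62%, 0.00673%, 1.66% and 0.718% in the other 4 fits, in the order given. In those 4 fits the adjusted p ran from 0.0503 to 0.0937 for *Cfd* and from 0.0549 to 0.0954 for *Rarres2*. At an unadjusted p under 0.05 the number of transcripts in them was 5 or 6. With all samples in the fit, 6562 of 14967 tested genes were under this unadjusted p, and the number in the 4 fits is not given here. The log2 fold change stayed between -4.60 and -3.27 for *Cfd*, between -3.55 and -2.47 for *Rarres2*, between -3.01 and -1.85 for *Angptl4* and between 1.18 and 1.84 for *Nampt* over the 6 fits. In the GC-corrected fits *Cfd* stayed between -2.23 and -1.70 and *Rarres2* between -3.18 and -2.22.

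A ratio of 2 transcripts within a sample does not depend on how libraries are scaled, and each transcript was therefore also set against *Adipoq*. The log2 ratio of *Cfd* to *Adipoq* counts was -0.01 ± 1.14 in floxed and -3.76 ± 1.08 in H3atKO samples (SD, n = 3 each), that of *Rarres2* was -3.52 ± 0.21 and -6.37 ± 1.1997, and that of *Angptl4* was -2.48 ± 0.85 and -4.65 ± 1.16. *Retn* went from -2.40 ± 0.24 to -3.74 ± 1.05. In the other direction, *Nampt* went from -4.01 ± 0.89 to -2.25 ± 0.57 and *Nrg4* from -4.50 ± 0.19 to -3.49 ± 0.51. For these 6 transcripts the groups did not overlap, which by itself sets p at 0.1 in a two-sided exact permutation test. That is the smallest p that 3 samples against 3 allow (adjusted p = 0.133 over 8 ratios). On cpm the groups did not overlap for 51.7% of all tested genes, and the share for ratios to *Adipoq* is not given here. The ratios of *Lep* (p = 0.3) and *Rbp4* (p = 0.4) overlapped between the groups in the same exact permutation test. GC content also entered these ratios. With it corrected, the difference between the groups went from -3.76 to -1.56 for *Cfd*, from 1.76 to 0.93 for *Nampt*, from 1.01 to 0.55 for *Nrg4* and from -0.32 to 1.31 for *Rbp4*. Between the groups the GC-corrected ratios of *Nampt*, *Nrg4*, *Angptl4* and *Lep* overlapped. Those of *Retn*, *Cfd* and *Rarres2* were lower in every H3atKO than in every floxed sample. That of *Rbp4* was higher in every H3atKO than in every floxed sample. The share of all genes without overlap in such corrected ratios is not given here.

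**Figure D4:**
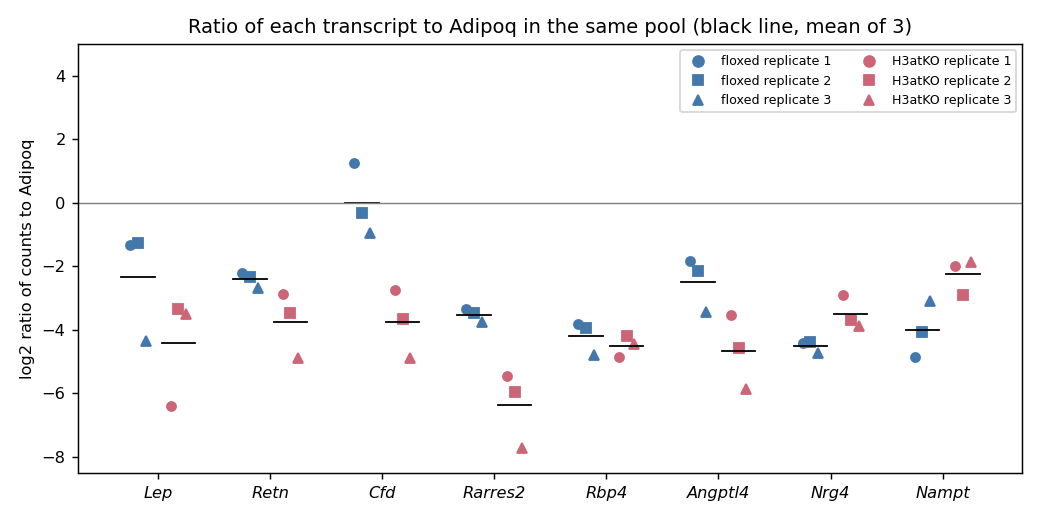
Log2 ratio of the counts of each transcript to those of *Adipoq* in the same pool (y axis), with blue marks for floxed, red marks for H3atKO, marker shape for the replicate number and a black line for the mean of 3. Red marks lie below blue ones for *Retn*, *Cfd*, *Rarres2* and *Angptl4* and above them for *Nrg4* and *Nampt*, and they are mixed for *Lep* and *Rbp4*.

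The order of the 9 transcripts was compared on cpm per kb of exon. In floxed samples *Cfd* was the highest on average (3363 ± 3091), followed by *Adipoq* (1699.5 ± 277), *Retn* (289 ± 89.0), *Lep* (216 ± 163), *Angptl4* (138 ± 81.0), *Rbp4* (104 ± 46.8), *Rarres2* (78.8 ± 23.0), *Nampt* (30.6 ± 13.3) and *Nrg4* (17.4 ± 4.72; SD, n = 3 each). Neighbours in this order overlapped, except that *Adipoq* was apart from *Retn* and *Rarres2* from *Nampt*. In H3atKO samples *Adipoq* was the highest (1505 ± 583) and stood apart from the next, *Cfd* (176 ± 89.3). *Nampt* moved from the eighth to the fourth place there (84.4 ± 26.3), *Rarres2* was the last (10.7 ± 6.85), and all further neighbours overlapped. Among all tested genes *Cfd* went from place 10 in floxed to place 141 in H3atKO samples by mean cpm per kb, and *Adipoq* from place 12 to place 18. The 9 transcripts together took 1.03% ± 0.508 of all counts in floxed and 0.246% ± 0.0542 in H3atKO samples (SD, n = 3 each), or 1.12% ± 0.526 and 0.365% ± 0.0912 of the counts outside the mitochondrial genome.

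**Figure D5:**
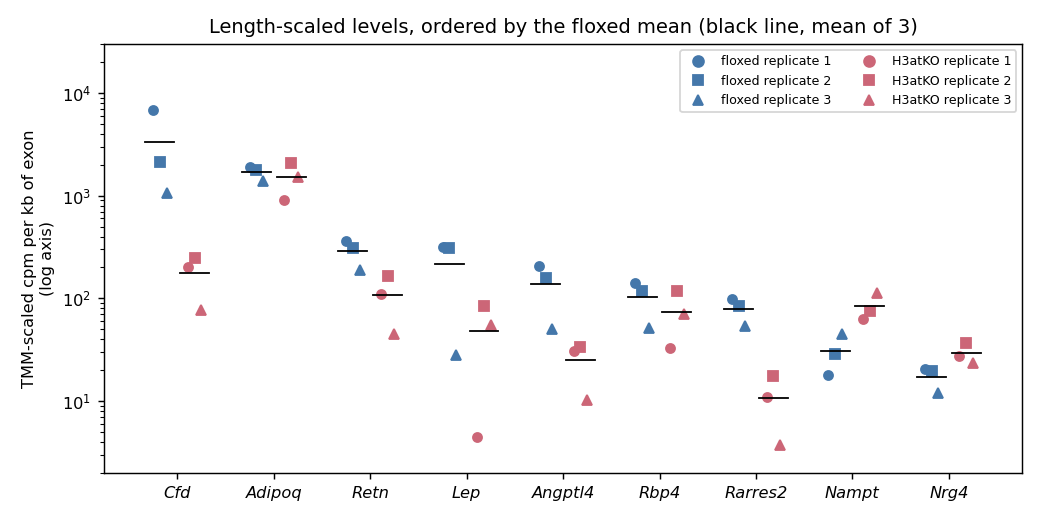
Level of each transcript in TMM-scaled cpm per kb of exon (log axis), ordered by the floxed mean, with blue marks for floxed, red marks for H3atKO, marker shape for the replicate number and a black line for the mean of 3. *Cfd* leads in floxed samples and *Adipoq* in H3atKO samples.

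Receptors and binding partners of these factors were listed too, and of 18 listed genes 16 were tested, 2 were upregulated, 3 were down-regulated (against 9.42% and 7.07% of all tested genes) and the median log2 fold change was -0.45. Both called genes of the chemerin and adiponectin systems fell. *Cmklr1*, the chemerin receptor, was at 269, 226 and 64.8 cpm in floxed and at 7.82, 32.7 and 5.31 cpm in H3atKO replicates 1 to 3, with no overlap between the groups. It fell by 3.82 on the log2 scale (± 0.82 SE, limma adjusted p = 0.0306) and by 2.60 with GC content corrected (adjusted p = 0.0493). *Gpr1*, another chemerin receptor that was looked up after the values had been seen, was at -1.86 on the log2 scale (adjusted p = 0.0508, or 0.0130 with the block) and at -2.35 with GC content corrected (adjusted p = 0.0237). *Ccrl2*, a further listed gene of the chemerin system looked up in the same way, overlapped between the groups. It was at -0.83 on the log2 scale (limma adjusted p = 0.234) and at -0.80 with GC content corrected (adjusted p = 0.262). *Cdh13*, which encodes T-cadherin, a surface protein that binds adiponectin, fell by 1.40 on the log2 scale (adjusted p = 0.0409) and by 1.89 with GC content corrected (adjusted p = 0.0462). The adiponectin receptors themselves, also looked up afterwards, had log2 fold changes of -0.17 for *Adipor1* (adjusted p = 0.617) and -0.02 for *Adipor2* (adjusted p = 0.965), and the GC-corrected value of *Adipor1* was 0.82 (adjusted p = 0.0415). *Lepr*, the leptin receptor, read in the same way, was at 8.04, 7.45 and 11.96 cpm in floxed and at 87.3, 6.73 and 117 cpm in H3atKO replicates 1 to 3. The log2 difference was 2.18 (adjusted p = 0.155), or 2.60 with the block (adjusted p = 0.0180), and the GC-corrected value was 1.27 (adjusted p = 0.433). Its high samples, H3atKO replicates 1 and 3, also had the highest sums of the 8 B cell markers (388 and 575 cpm, against 4.14 to 135 in the other 4 samples), and the part of those cells was not tested.

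Of the listed partners of *Angptl4*, *Lpl* and *Gpihbp1* were called without the GC correction. *Lpl*, the lipoprotein lipase that ANGPTL4 inhibits, was at 7838, 9428 and 10439.5 cpm in floxed and at 21063, 50718 and 47767 cpm in H3atKO replicates 1 to 3, so that the groups did not overlap. It rose by 2.02 on the log2 scale (± 0.39 SE, limma adjusted p = 0.0253), and its GC-corrected value was 1.297 (adjusted p = 0.0532), or 1.28 with the replicate block added (adjusted p = 0.0424). *Gpihbp1*, which carries the lipase across the capillary wall and is made by endothelial cells, fell by 2.97 on the log2 scale (adjusted p = 0.0480) and had a GC-corrected value of -2.01 (adjusted p = 0.0810), or of -2.07 with the block added (adjusted p = 0.0103). The 8 endothelial markers summed to between 676 and 1041 cpm in floxed and between 456 and 603 cpm in H3atKO samples. Of these 8 markers 0 were upregulated and 3 down-regulated (against 9.42% and 7.07% of all tested genes), and their part in the *Gpihbp1* value was not tested. *Insr*, the insulin receptor, rose by 1.15 on the log2 scale (adjusted p = 0.0306), and by 0.86 with GC content corrected (adjusted p = 0.0357).

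In the alternative complement pathway, to which adipsin belongs, 1 of 11 tested genes was called, against 16.5% of all tested genes. *Cfp*, which encodes properdin, the stabilizer of the C3 convertase, went from 34.0 ± 15.5 to 7.26 ± 2.75 cpm (SD, n = 3 each; log2 fold change -2.14, limma adjusted p = 0.0438), and its GC-corrected value was -0.56 (adjusted p = 0.626). *C3*, the central component, looked up afterwards too, had a log2 fold change of -1.35 (adjusted p = 0.0525, or 0.0214 with the block) and a GC-corrected value of -0.41 (adjusted p = 0.522). Around *Nampt*, 2 of 12 tested genes of NAD synthesis and use were called, a share near the 16.5% of all tested genes. *Nadk2*, the mitochondrial NAD kinase, rose by 1.37 on the log2 scale (adjusted p = 0.0480), and *Nmnat3*, a mitochondrial enzyme downstream of NAMPT, fell by 1.09 (adjusted p = 0.0493), and neither was called after the GC correction.

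Of 12 genes for the folding and secretion of adiponectin, 4 were upregulated and 3 down-regulated (against 9.42% and 7.07% of all tested genes), with a median log2 fold change of 0.49. *Ero1a* (*Ero1l* in the annotation), an oxidase of the endoplasmic reticulum, was at 19.1, 25.7 and 30.9 cpm in floxed and at 69.7, 70.9 and 74.0 cpm in H3atKO replicates 1 to 3, a rise by 1.53 on the log2 scale (± 0.25 SE, limma adjusted p = 0.0202). The chaperones *Hspa5* (1.52, adjusted p = 0.0269) and *Canx* (1.27, adjusted p = 0.0305) rose, and the lysyl hydroxylases *Plod1* (-2.30, adjusted p = 0.0431) and *Plod3* (-2.92, adjusted p = 0.0481) fell. Corrected for GC content, 0 of the 12 were called by limma (against 8.61% of all tested genes), and with the replicate block added to it 1 was upregulated and 3 were down-regulated (against 13.1% and 9.71%).

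Among 45 other secreted factors of adipose tissue, 39 were tested, 0 were upregulated and 8 were down-regulated (against 9.42% and 7.07% of all tested genes), with a median log2 fold change of -1.44. *C1qtnf1*, a relative of adiponectin with the same type of globular domain, was at 84.8, 59.6 and 53.9 cpm in floxed and at 7.12, 7.14 and 5.88 cpm in H3atKO replicates 1 to 3, with no overlap between the groups. It fell by 3.26 on the log2 scale (± 0.34 SE, limma adjusted p = 0.00845) and by 1.94 with GC content corrected (adjusted p = 0.0170). *Serpinf1*, which encodes pigment epithelium-derived factor, fell by 3.18 on the log2 scale (adjusted p = 0.0151) and by 2.04 with GC content corrected (adjusted p = 0.0352). *Metrnl* (-2.40), *Pltp* (-2.20) and *C1qtnf6* (-1.93) were down-regulated with adjusted p between 0.0352 and 0.0386, and none of these 3 was called after the GC correction. With the replicate block 1 of the 39 was upregulated and 21 were down-regulated, where 24.8% of all tested genes were called higher and 28.7% lower. The 8 progenitor and fibroblast markers, genes of cells that also secrete several of these factors, summed to between 2776 and 9396 cpm in floxed and between 1548 and 2421 cpm in H3atKO samples, with 2 of 8 down-regulated, and their part was not tested.

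Genes with the most similar profile over the 6 samples were searched among 8395 tested genes with a mean of at least 3 log2 cpm, by the root mean square difference of centred log2 cpm. The nearest to *Adipoq* was *Zbtb5* (0.0741 on the log2 scale), to *Retn* *Smyd2* (0.0828), to *Angptl4* *Adcy6* (0.0711) and to *Nampt* *Vcpip1* (0.0703). The nearest to *Nrg4* was *Hsd17b4* (0.101), to *Rbp4* *Pck1* (0.154), to *Cfd* *Col5a3* (0.233) and to *Rarres2* *Ctsf* (0.286). *Lep* had no near profile, the closest being that of *Npr3* at 0.941. Within the 9 the closest pairs were *Adipoq* with *Rbp4* (0.394) and *Angptl4* with *Rarres2* (0.530), and the most distant were *Cfd* and *Nampt* (3.08). All profiles share the 6 libraries and their GC curves, and the values are descriptions without a test.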

How the data were processed

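IngWAT RNA of 3 floxed and 3 H3atKO pools was sequenced as poly(A)-selected stranded libraries. According to the methods and processing notes, the authors trimmed reads with cutadapt 1.3, aligned them to GRCm38 with STAR 2.4.2a and counted them with HTSeq 0.6.1, and the deposited values are raw counts per Ensembl gene, not normalized. The 5 tallies at the end of each file were left out. Alignments to several places made up 28.3% to 35.2% of counted and tallied alignments in floxed and 43.8% to 45.5% in H3atKO samples. This difference cannot be told apart from the genotype either.

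GENCODE M21 (GRCm38) gave symbols, positions, exon lengths and, from the longest transcript, GC content. Promoters came from RefSeq (GRCm38.p6), with an entry for 7 of the 9 genes. Genes reaching 1 cpm in any sample were kept, and limma 3.58.1 (voom, moderated test, two-sided) tested H3atKO against floxed on libraries scaled by TMM (edgeR 4.0.16) in R 4.3.3, with Benjamini-Hochberg adjustment over 14967 genes and calls under 0.05. This design follows the methods of the study. Alternatives were edgeR, DESeq2 1.42.0, other scalings and filters, sample weights, a replicate block, a GC correction (robust loess, span 0.3) and each sample left out. The GC correction with each sample left out was added after seeing the data. The fits were also run on simulated data, whose spread was fitted with the replicate block and which held no replicate effect. The outcome is not given here, so that run is no support for the fits.

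Both groups carry the replicate numbers 1 to 3. The deviations of equally numbered samples from their group means had r = 0.510, 0.389 and 0.264 across genes, so the numbers were taken to pair the samples. The pairing thus rests on the same expression values that the block fits test. What the numbers stand for is not given in the sources used here.

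Genes named are the 9 members, *Hdac3*, at most 5 called genes per list by size of change, the genes nearest in profile and those within 200 kb of *Adipoq*. Genes outside this rule are marked where they appear. The members and lists were chosen with earlier results of these data known. P-values measure the spread between pools.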

Additional observations from a re-analysis of the deposited data

How the results depend on the processing

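Of the 9 log2 fold changes, those of *Lep*, *Retn*, *Cfd*, *Angptl4*, *Rarres2* and *Nampt* kept their direction in all fits run. Over 12 alternatives that use all samples, *Cfd* was called in 12, *Rarres2* in 11, *Angptl4* in 9, *Nampt* in 8 and *Retn* in 6. Scaling to the adipocyte markers turned *Adipoq* to 0.63 and *Rbp4* to 0.32 and left 0 transcripts called higher and 1 lower (2.08% of all genes called). Library sizes alone turned *Nrg4* to -0.080 and gave 0 higher and 6 lower (39.9%), and sample quality weights gave 2 and 5 (56.4%). The GC correction turned *Rbp4* to 0.86 and its log2 ratio to *Adipoq* to 1.31, with 0 called higher. The replicate block, which pairs samples by number, gave 2 called higher, and the block with the GC correction gave 0 and *Rbp4* at 0.87. Leaving out each sample moved *Adipoq* between -0.56 and 0.063, and the counts between 0 and 1 higher and between 0 and 5 lower (0.00673% to 44.4% of all genes called). The same under the GC correction, chosen after seeing the data, gave *Rbp4* 0.85, 1.00, 0.76, 1.55, 0.47 and 0.57 and, without floxed replicate 3 and H3atKO replicate 2, *Nrg4* -0.29 and -0.11. In these GC-corrected fits 0 to 1 were called higher and 0 to 3 lower (0% to 16.5% of all genes called). Of 216 values under alternatives, 145 kept direction and side of the threshold, 13 became stronger, 44 weaker and 14 reversed. The causes were not tested. With 3 pools a group, an exact test of 1 value cannot go below 0.1, and *Lep* and *Cfd* vary several-fold within the floxed pools.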
